A study of Schizophyllum commune with 6 samples.

Results

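In the basidiomycete Schizophyllum commune (split gill), 45 of 14652 gene models were low in mycelium of a strain without dhc2 and at similar, higher levels in both wild-type strains. The labels name dhc2 as a dynein heavy chain gene. The heavy chain is the motor subunit of dynein, which moves cargo along microtubules, and in filamentous fungi dynein is known for moving nuclei and vesicles through the hyphae. Mating in this species depends on an A locus of homeodomain genes and a B locus of pheromone and receptor genes.

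There were 6 RNA sequencing libraries in 3 groups of 2. The mating type was A3,5 and B2,2 both in the wild type 12-43 and in the dhc2 knockout, and A4,6 and B2,1 in the wild type E6. All groups were grown at 28 °C on solid CYM medium and then for 3 days on cellophane. By the strain labels the samples are monokaryons, whose nuclei are all of 1 type, but the growth protocol speaks of mycelium from a mating interaction. How many transformants stand behind the knockout is not given in the sources used here, and the labels do not give separate cultures for the replicates, so any p-value rests on library-to-library spread that could be technical alone.

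The 45 models were chosen by their measured RPKM (reads scaled by model length and library depth). Each of the 4 wild-type libraries was at 10 RPKM or more, the lowest of these was at least 4 times the higher dhc2 value, and the 12-43 and E6 means, after adding 0.5 RPKM, lay within 2-fold of each other. The lowest wild-type value over the higher dhc2 value is called the separation below. By this definition, leaving out a library can raise a separation or leave it unchanged, but never lower it. Since the RPKM values chose the models, they are given as a description, with no test. No member carried a gene symbol or product in the tables used here, so the models are named by their identifiers, and no function is assigned to them. No sequences of them were used here. Because the samples are bulk mycelium, fewer cells that use a gene and less RNA per cell cannot be told apart.

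The recovered reads behind the RPKM were scaled to 8769918 to 14372979 reads per library. In 12-43 replicate 1 and both dhc2 libraries the quality reports of the raw reads listed a 5-base sequence, GAAGA, as enriched, at 3 to 3.07 times the frequency expected. The reports of the other 3 libraries, 12-43 replicate 2 and the E6 pair, did not list it. GC content was 59% where it was listed and 56% to 58% where it was not. The rule itself sets every wild-type library above dhc2, so the low dhc2 values of the members do not show what part this difference has. The rule does not set the order of the 12-43 replicates, which differ in the listing and are compared below. What part the listing has in the values of the members was not tested. The reads of dhc2 itself are not reported, because no identifier is paired with that name in the tables used here, and the knockout label is therefore not checked by its target.

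The members together took 0.75% and 0.826% of the reads in 12-43, 0.808% and 0.737% in E6, and 0.0783% in each dhc2 library. All 45 passed the filter on low reads. The mean in 12-43 was 4.41-fold to 104-fold the dhc2 mean among the 44 members with reads in dhc2 (median 9.09-fold), and the mean in E6 was 4.51-fold to 85.5-fold (median 7.88-fold). Both sets of folds share the dhc2 libraries. In the fit of all libraries (limma), 26.2% of the 12484 tested models were called lower in dhc2 against 12-43, 31.2% against E6 and 15.1% against both. With the library group (GAAGA listed or not) as a covariate, the number called lower against E6 was 2308 in place of 3890. The effect of this covariate, here and below, is estimated from the difference between the 12-43 replicates alone. Both dhc2 libraries had GAAGA listed and neither E6 library had, so the listing and these groups cannot be told apart. All 45 members were among those called against both, which the choice of members brings about. Their median log2 change was -3.11 against 12-43 and -2.91 against E6, beside medians over all tested models of 0.00 in each comparison.

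**Figure D1:**
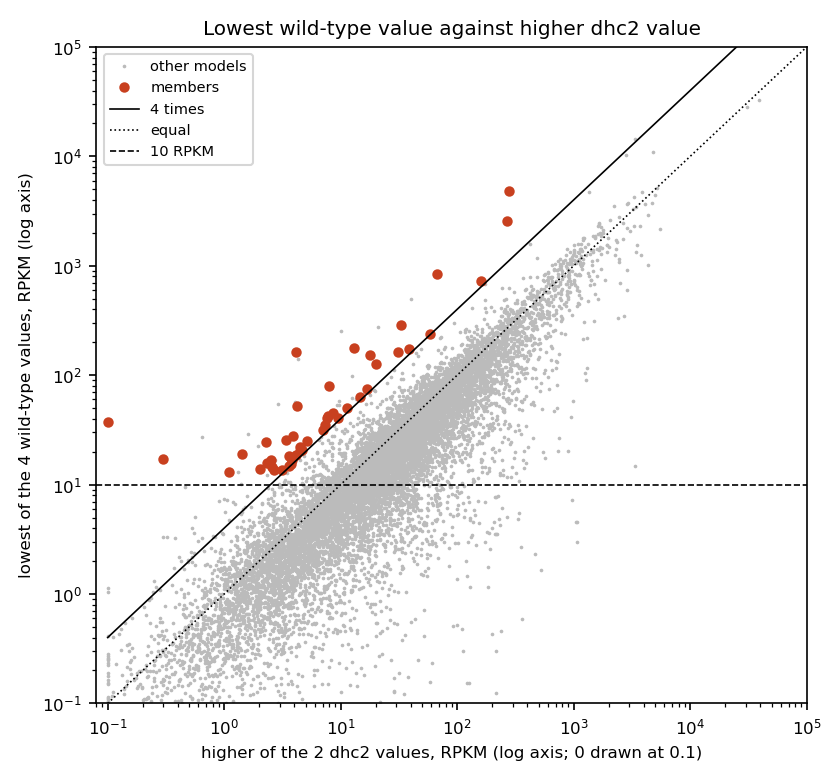
Each point is a gene model, with the higher of its 2 dhc2 values on the x axis and the lowest of its 4 wild-type values on the y axis, both in RPKM on log axes. The 45 members (red) lie above the 4-fold line and the 10 RPKM line, and the grey points above both lines are models whose wild-type means differed by more than 2-fold.

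The members spread widely above the threshold. The separation was below 5 in 18 members, from 5 to under 10 in 16 and at least 10 in 11, with a median of 5.30. Just inside the limit were models 258542 at 4.02, 109852 at 4.07 and 1109355 at 4.12, and just outside it were models 64227 at 3.94, 61868 at 3.91 and 1088777 at 3.89. Model 1088777 was an abundant transcript, with a lowest wild-type value of 675 RPKM and a higher dhc2 value of 174 RPKM. Of the 5881 models that met both conditions on the wild types, 157 had a separation of at least 2 and 76 of at least 3, and the median was 0.821 among those with reads in dhc2. The members were 0.765% of these models.

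**Figure D2:**
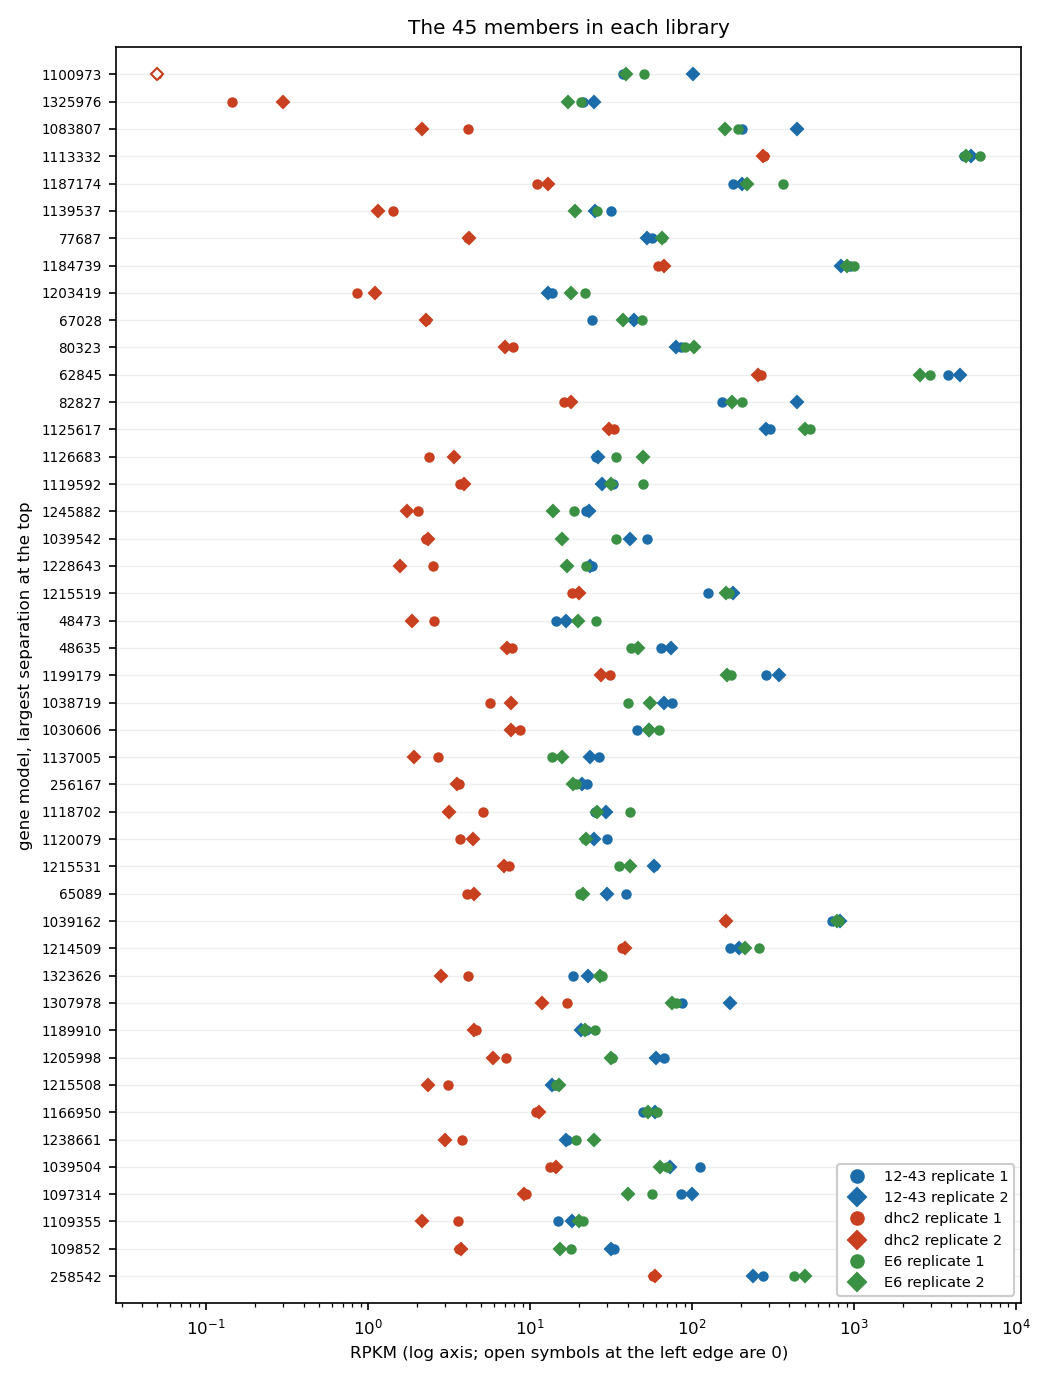
Each row is a member, ordered by separation, and each symbol is 1 library (circles replicate 1, diamonds replicate 2) on a log axis of RPKM. The dhc2 symbols (red) lie left of all wild-type symbols in every row, from 0 for model 1100973 at the top to 57.6 and 59.0 RPKM for model 258542 at the bottom.

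A pair of short models had almost no reads in the knockout. Model 1100973 (432 coding nt) had 229 and 383 reads in 12-43 and 202 and 219 in E6, and 0 in both dhc2 libraries. Its level was 37.7 and 101 RPKM in 12-43 and 50.8 and 39.0 RPKM in E6. With 3 reads per dhc2 library as the floor, which is 0.483 and 0.501 RPKM for this model, it was at least 141-fold lower than in 12-43 and at least 91.2-fold lower than in E6. With 12-43 replicate 1 alone the bound was 76.6-fold. Model 1325976 (483 coding nt) had 143 and 105 reads in 12-43, 92 and 108 in E6, and 1 and 2 in dhc2. Per read of library depth this was a ratio of 102 to 12-43, with an exact 95% counting interval of 34.6 to 499. To E6 the ratio was 84.7, with an interval of 28.6 to 414. Both intervals cover counting error alone, not the spread between replicates or the choice of the model by its values. Its level was 21.1 and 24.8 RPKM in 12-43, 20.7 and 17.2 RPKM in E6, and 0.144 and 0.299 RPKM in dhc2, with E6 just below 12-43.

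Model 1083807 (201 coding nt) came next and kept a small number of reads. It was at 204 and 446 RPKM in 12-43, 192 and 161 RPKM in E6, and 4.15 and 2.15 RPKM in dhc2, which are 12 and 6 reads. The wild-type groups did not overlap, and 12-43 replicate 2 stood above the other 3 wild-type libraries. The mean in 12-43 was 103-fold and the mean in E6 56.0-fold the dhc2 mean. The separation was 38.8, and 74.9 without dhc2 replicate 1.

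The most abundant members were models 1113332 and 62845, which ranked 9 and 22 of all models by wild-type level. Model 1113332 (315 coding nt) was at 4812 and 5290 RPKM in 12-43, 6023 and 4900 RPKM in E6, and 280 and 273 RPKM in dhc2. Model 62845 (444 coding nt) was at 3800 and 4510 RPKM in 12-43, 2942 and 2544 RPKM in E6, and 267 and 256 RPKM in dhc2. The dhc2 libraries lay close together for both, and for model 1113332 the wild types overlapped whereas for model 62845 both E6 libraries were below both 12-43 libraries. At 18.3-fold and 19.8-fold (model 1113332) and 15.9-fold and 10.5-fold (model 62845) below 12-43 and E6, they were still well expressed in the knockout. Together they took 0.267% to 0.367% of the reads in the wild types and 0.02% and 0.0207% in dhc2. The other 43 members took 0.430% to 0.488% in the wild types and 0.0576% and 0.0584% in dhc2. The rule fixes the direction of both differences.

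A further 11 members had a wild-type mean between 100 and 1000 RPKM. Model 1184739 (435 coding nt) was at 951 and 833 RPKM in 12-43, 1007 and 912 RPKM in E6, and 61.4 and 67.4 RPKM in dhc2. Model 1039162 (678 coding nt) was at 733 and 818 RPKM in 12-43, 812 and 785 RPKM in E6, and 161 and 162 RPKM in dhc2. The wild types overlapped for both, and the replicates of model 1039162 were close in every group. Its 12-43 mean was 4.81-fold and its E6 mean 4.95-fold the dhc2 mean.

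Models 1125617 and 258542 were higher in E6 than in 12-43. Model 1125617 (1503 coding nt) was at 304 and 285 RPKM in 12-43, 539 and 502 RPKM in E6, and 33.1 and 30.8 RPKM in dhc2. Model 258542 (1635 coding nt) was at 276 and 237 RPKM in 12-43, 425 and 496 RPKM in E6, and 57.6 and 59.0 RPKM in dhc2. For both, the 3 groups did not overlap, with E6 highest and dhc2 lowest. Model 1187174 (375 coding nt) was at 178 and 205 RPKM in 12-43, 367 and 220 RPKM in E6, and 11.1 and 12.9 RPKM in dhc2. Its E6 libraries lay apart from each other but both above 12-43.

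Model 1199179 (177 coding nt), the shortest member, went the other way between the wild types. It was at 285 and 345 RPKM in 12-43, 175 and 165 RPKM in E6, and 31.1 and 27.3 RPKM in dhc2. The 3 groups did not overlap, with 12-43 highest. Model 1215519 was at 125 and 179 RPKM in 12-43, 170 and 162 RPKM in E6, and 18.1 and 20.2 RPKM in dhc2. Model 1214509 was at 172 and 194 RPKM in 12-43, 261 and 214 RPKM in E6, and 37.0 and 38.5 RPKM in dhc2. The wild types overlapped for model 1215519 and did not for model 1214509.

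The members with a separation of at least 10 that have not yet been described were at lower levels. Model 77687 (1551 coding nt) was at 56.6 and 52.8 RPKM in 12-43, 65.2 and 65.4 RPKM in E6, and 4.13 and 4.19 RPKM in dhc2. Model 80323 (1827 coding nt) was at 85.1 and 79.5 RPKM in 12-43, 90.8 and 103 RPKM in E6, and 7.88 and 6.99 RPKM in dhc2. In both, E6 was slightly above 12-43 without overlap and the replicates were close. Model 1139537 was at 31.8 and 25.1 RPKM in 12-43, 25.9 and 18.9 RPKM in E6, and 1.42 and 1.15 RPKM in dhc2. Model 1203419 was at 13.7 and 13 RPKM in 12-43, 21.7 and 17.9 RPKM in E6, and 0.849 and 1.10 RPKM in dhc2, which are 16 and 20 reads. The wild types overlapped for model 1139537 and not for model 1203419. Model 67028 was at 24.3 and 43.8 RPKM in 12-43, 48.9 and 37.6 RPKM in E6, and 2.29 and 2.28 RPKM in dhc2, and its separation of 10.6 became 16.4 without 12-43 replicate 1.

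By wild-type mean, 32 members were at 100 RPKM or less, 16 of them under 30 RPKM. In the knockout, 8 members had 20 reads or fewer in each library and 16 had 100 reads or more in each, so the fold of the first 8 rests on few reads. In every wild-type library each member had at least 42 reads. The longest member was model 65089, whose 10350 coding nt ranked 11 among all models. It was at 39.2 and 29.8 RPKM in 12-43, 20.4 and 21.3 RPKM in E6, and 4.06 and 4.50 RPKM in dhc2. Owing to its length these values stand for 5705 and 2706 reads in 12-43, 1947 and 2867 in E6, and 604 and 645 in dhc2. Model 1189910 (3723 coding nt) followed in length, at 22.2 and 20.5 RPKM in 12-43, 25.3 and 21.7 RPKM in E6, and 4.63 and 4.48 RPKM in dhc2.

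The members included more short models than the 5881 models that met both wild-type conditions. Coding length, which the rule did not use directly, had a median of 882 nt in the members and 1113 nt in those models. Under 600 nt were 15 of 45 members (33.3%) and 1176 of the 5881 models (20%). The wild-type level was much the same, with medians of 48.4 and 46.7 RPKM and with 28.9% and 25.5% of models over 100 RPKM. A test of the difference in length was not made.

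The members had no common order of the wild types. Both E6 libraries were above both 12-43 libraries in 14 members (35.9% of tested models), below them in 19 (43.3% of tested models), and the groups overlapped in 12. The E6 mean over the 12-43 mean, with 0.5 RPKM added to each, ran from 0.50 in model 1205998 to 1.79 in model 258542 with a median of 1.03, and 11 members were within 1.2-fold. Limma called 9 members higher in E6 and 10 lower, against 30.9% and 28.3% of all tested models. The rule held this difference under 2-fold, so nothing is read from these shares. Near the lower limit were models 1205998, at 67.4 and 59.6 RPKM in 12-43 and 32.2 and 31.4 RPKM in E6, and 109852, at 33.1 and 31.7 RPKM in 12-43 and 18.0 and 15.3 RPKM in E6. Without the limit on the wild types 21 more models met the rule, of which 12 were higher in E6 and 9 higher in 12-43.

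**Figure D3:**
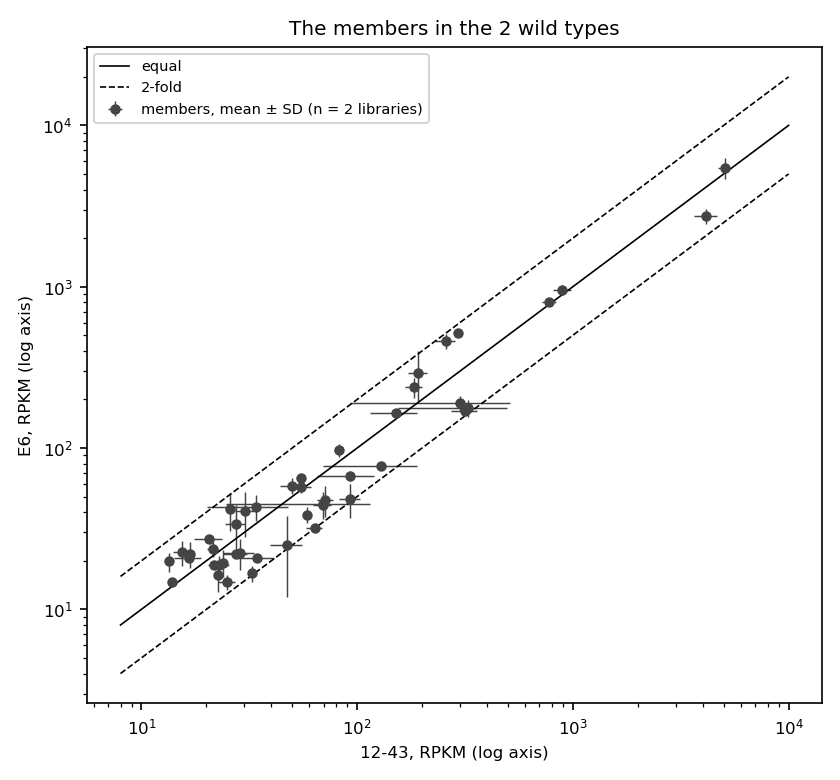
Mean RPKM in 12-43 (x axis) and E6 (y axis) of the 45 members, both on log axes, with bars of 1 SD over 2 libraries. The members lie on both sides of the line of equal levels and within the dashed 2-fold lines, apart from the 0.5 RPKM added by the rule.

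Some members had wild-type replicates that lay far apart. The 12-43 libraries differed by more than 1.5-fold in 6 members (13.3%), against 2.18% of the 5881 models that met both wild-type conditions, and the E6 libraries in 4 (8.89%), against 1.11%. The median of replicate 2 over replicate 1 was 1.03 in 12-43 and 0.90 in E6 for the members, and 0.95 and 1.02 for those models. These differences were not tested. Replicate 2 was the higher 12-43 library in 5 of the 6, and replicate 1 the higher E6 library in all 4. In 12-43 only replicate 1 had GAAGA listed, whereas neither E6 library had. Whether the listing has a part in these replicate differences was not tested. Model 82827 was at 154 and 447 RPKM in 12-43, 204 and 176 RPKM in E6, and 16.1 and 17.8 RPKM in dhc2. Model 1307978 was at 86.5 and 171 RPKM in 12-43, 80.2 and 74.8 RPKM in E6, and 16.9 and 11.8 RPKM in dhc2. In both, 12-43 replicate 2 stood alone above the other wild-type libraries. The remaining models in which 12-43 replicate 2 was higher were 1100973, 1083807 and 67028. Model 1039504 was lower there, at 112 and 73.0 RPKM. In E6, model 1039542 differed most, at 34.0 and 15.8 RPKM beside 53.1 and 41.7 RPKM in 12-43 and 2.27 and 2.35 RPKM in dhc2, and its separation of 6.72 became 14.5 without E6 replicate 2.

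Over all tested models the dhc2 replicates lay closest. The SD of the log2 ratio between replicates was 0.217 in dhc2, 0.356 in 12-43 and 0.296 in E6. The limits used next were not counted over all models, so close dhc2 replicates are not read as particular to the members. In dhc2 the replicates agreed within 1.2-fold in 27 of the 44 members with reads and differed by more than 1.5-fold in 5. Of these 5, models 1083807, 1228643, 1118702 and 1109355 were lower in replicate 2. Without replicate 1, their higher dhc2 library, the separations of the last 3 went from 6.68 to 10.7, from 4.93 to 7.97 and from 4.12 to 6.95. The definition of the separation fixes the direction of these moves. Model 1325976 was the one with replicate 2 higher, on 1 and 2 reads, and its separation went from 57.5 to 119 without replicate 2.

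**Figure D4:**
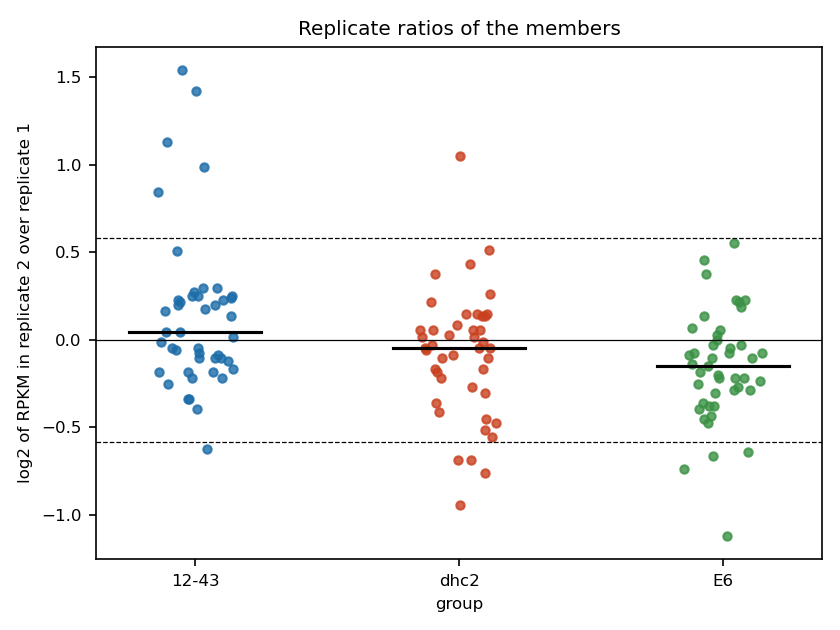
Log2 of the RPKM in replicate 2 over replicate 1 for the members in each group, with black bars at the medians and dashed lines at 1.5-fold (44 members in dhc2, where model 1100973 had no reads). In 12-43 a tail of 5 members lies above the upper line, and in E6 4 members lie below the lower line.

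Of the 45 members, 12 (26.7%) had a locus tag in RefSeq's genes of strain H4-8 (assembly Schco3), as had 24.8% of all models, and their places in its gene order were looked up. No matched member had another matched member within 3 genes on either side. The places of the other 33 members are not known, so members that lie side by side could have been missed. The closest pair, models 80323 and 48635, lay 33 genes apart. Of the neighbours within 3 genes, 20 had values and 18 were tested, and limma called 3 of them lower in dhc2 against both wild types (15.1% of all tested models). These were models 1078651, 255660 and 1119233, with log2 changes of -0.73, -0.72 and -0.32 against 12-43 and -0.96, -0.89 and -0.33 against E6. The call on model 1119233 was lost without either dhc2 library (limma adjusted p = 0.108 and 0.0856 against 12-43). The largest separation of any neighbour with reads in dhc2 was 1.55, against at least 4 by the rule in the members.

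Model 1238661 lay among genes of the B mating-type locus. It was at 16.9 and 16.7 RPKM in 12-43, 19.1 and 24.8 RPKM in E6, and 3.81 and 2.99 RPKM in dhc2. These values stand for 160 and 99, 119 and 218, and 37 and 28 reads. The rule sets both wild types above the knockout. Within 10 genes on either side, 9 genes carry symbols of B pheromones or the receptor bar3, the nearest being bbp2-6 at 2 genes and bbp2-8 and bap3-3 at 3 genes. The symbols bbp2 and bap3 mark pheromone genes.

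Most tested genes around model 1238661 were higher in the knockout than in 12-43. Within 10 places 11 genes were tested, of which limma called 9 higher in dhc2 against 12-43 (28.3% of all tested models), 7 of them with a B symbol, while bar3 and model 1160054 did not pass the test. Against E6, 8 were called higher (31.6% of all tested models), and bar3 and model 1160054 were called lower. The labels give E6 another B type than 12-43 and dhc2, so that in the comparisons with E6 the B type and the knockout cannot be told apart for these genes. The pheromone gene bap3-3 was at 21.5 and 18.4 RPKM in 12-43, 13 and 8.41 RPKM in E6, and 93.9 and 103 RPKM in dhc2, and its log2 change against 12-43 was 2.28 (SE 0.19; adjusted p = 6.44e-05 by limma). The pheromone gene bbp2-8 was at 4.54 and 2.02 RPKM in 12-43, 0 and 0.818 RPKM in E6, and 26.4 and 23.8 RPKM in dhc2, and changed by 2.85 (SE 0.48; adjusted p = 0.00196 by limma). Both genes were highest in the knockout, where model 1238661 was lowest by the rule that chose it.

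On the side of bbp2-8, the nearest genes to model 1238661 were read little in 12-43. The gene bbp2-6 had 3 reads in each 12-43 library, 10 and 28 in E6, and 11 and 18 in dhc2, and its call against 12-43 was lost without dhc2 replicate 2 (limma adjusted p = 0.0706). Model 1160054, next to model 1238661, had 2 reads in each library of 12-43 and dhc2 and 43 and 87 in E6, so E6 alone was high. The receptor gene bar3 was at 11.8 and 10.1 RPKM in 12-43, 20.3 and 18.1 RPKM in E6, and 8.99 and 7.94 RPKM in dhc2. Its log2 change against 12-43 was -0.34 (SE 0.14; adjusted p = 0.0692 by limma), and the adjusted p was 0.0414 with voom. Whether the gene order of H4-8 holds in 12-43 and E6 was not tested. The symbols are also those of H4-8, and whether the sequenced strains carry the same B alleles was not tested. The values of bap3-3, bar3 and the bbp2 genes are therefore those of the models with these symbols, whichever allele the reads came from. Pheromone genes have similar copies, so the reads of a single copy are uncertain.

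**Figure D5:**
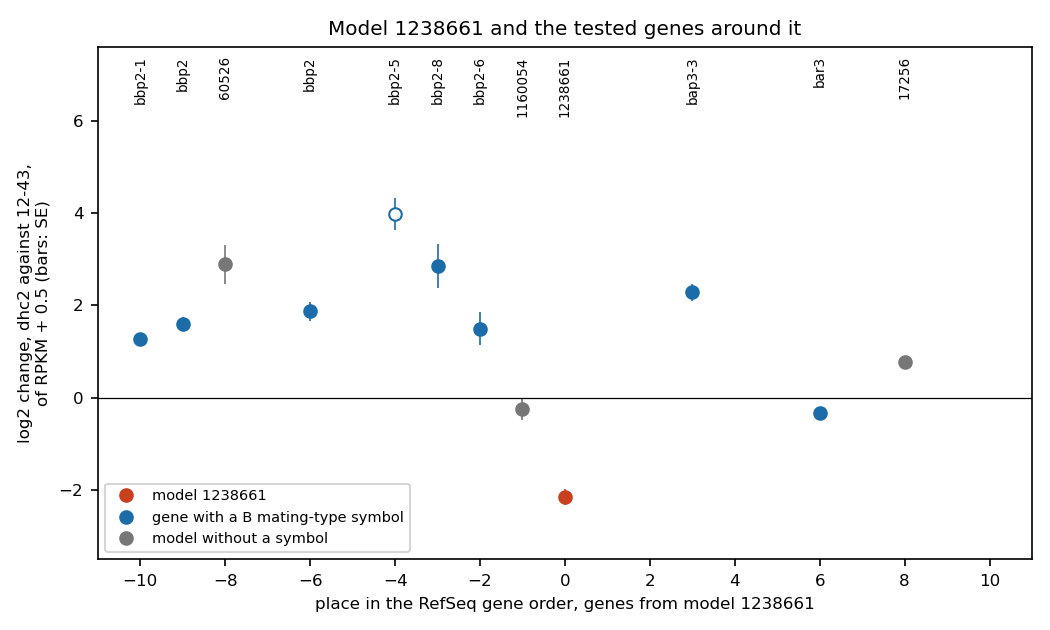
Log2 change of RPKM + 0.5 in dhc2 against 12-43, with bars of 1 SE, for model 1238661 (red, at 0) and the tested genes within 10 places of it in the RefSeq gene order. Model 1238661 is at -2.15, and the rule that chose it sets it below 0. The pheromone genes (blue) are above 0 and the receptor gene bar3 (blue) is at -0.34. The open symbol is bbp2-5, which had 0 and 1 read in 12-43, so that its change depends on the added 0.5. The bbp2 gene at -6 had 2 reads in each 12-43 library and bbp2-6 had 3 in each, so their changes depend on it too.

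None of the 39 matched models with a symbol was a member. Hydrophobins are secreted surface proteins of hyphae and fruiting bodies. Of the 9 tested, limma called 7 lower in dhc2 against 12-43 (26.2% of all tested models) and 3 against E6 (31.2%). The same 3, HYD2, SC3 and Hyd5, were lower against both (15.1%). Against E6 the directions were mixed, with Hyd4 (log2 change 2.19) and Hyd9 (1.34) called higher. The call on Hyd9 needed dhc2 replicate 1 and both E6 libraries. Its log2 change was 1.18 without dhc2 replicate 1, 1.48 without E6 replicate 1 and 1.22 without E6 replicate 2. Hyd9 was at only 0.696 and 0.493 RPKM in E6. The call was also lost with 2 RPKM added in place of 0.5 (log2 change 0.72, limma adjusted p = 0.0589) and with voom (adjusted p = 0.0896). HYD2 missed membership on the wild types alone: it was at 66.9 and 47.9 RPKM in 12-43, 16.8 and 12.3 RPKM in E6, and 0.754 and 2.35 RPKM in dhc2, a separation of 5.24 with wild-type means 3.85-fold apart after adding 0.5 RPKM. SC3, a hydrophobin of aerial hyphae, was at 10907 and 13868 RPKM in 12-43, 21811 and 23009 RPKM in E6, and 4842 and 4704 RPKM in dhc2, a separation of 2.25. Hyd5 had a separation of 1.55, and its call against E6 was lost without E6 replicate 1 (limma adjusted p = 0.065) and with the library group as a covariate (0.212). Median log2 changes of the hydrophobins were -1.52 against 12-43 and -0.14 against E6, beside 0.00 over all models in each. Of the 13 tested B mating-type genes 9 were higher against both wild types (16.2% of all tested models). The median log2 changes of the 13 were 1.49 against 12-43 and 3.09 against E6, whose labelled B type differs. Among the 9, bbp2-1 and both genes named bbp2 were at 0 RPKM in both E6 libraries. The call on bbr2 against 12-43 (log2 change 0.81) needed both dhc2 libraries. Its log2 change was 0.83 without dhc2 replicate 1 and 0.78 without dhc2 replicate 2.

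Of 13 genes with other symbols limma called 1 higher (16.2% of all tested models) and 2 lower (15.1%) against both wild types. The gene called higher was ura1, an enzyme gene of pyrimidine synthesis that serves as a marker in transformation of S. commune. It was at 7.74 and 10.8 RPKM in 12-43, 14.7 and 14.2 RPKM in E6, and 213 and 214 RPKM in dhc2, with log2 changes of 4.48 and 3.75. The genes called lower were CFS2 (log2 changes -0.72 and -0.85) and WC2, the partner of a blue-light receptor (-0.33 and -0.63). Against 12-43 the call on CFS2 was lost without dhc2 replicate 1 (limma adjusted p = 0.0698) or 2 (0.0619), and against E6 with the covariate for GAAGA (0.111). The call on WC2 against 12-43 was lost without 12-43 replicate 1 (limma adjusted p = 0.15), either dhc2 library (0.198 and 0.127) or either E6 library (0.0582 each), without scaling (0.0602), with the replicate block (0.0603) and in a fit of 12-43 and dhc2 alone (0.0611). The lists hold the genes that have a symbol and were drawn up with results of these libraries known.

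The same rule was applied to the other groups for scale. A model low in 12-43 alone, against dhc2 and E6, was found 130 times, and one low in E6 alone 98 times, so fewer models were low in the knockout alone than in either wild type alone. The mirrored rule, high in dhc2 alone, gave 108 models. These counts were not tested against each other. Leaving out 1 library at a time gave 47 to 56 models in place of the 45. The 4-fold and 10 RPKM parts of the rule can then only admit more models, so this range does not measure the uncertainty of the count.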

How the data were processed

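RNA of mycelium was sequenced as 50 bp single reads from an mRNA-based library, per the labels' protocols. The authors deposited RPKM with a decimal comma for 14652 models, followed by a FastQC 0.9.2 report, per the file headers. TopHat, DESeq and edgeR are named in the submitters' processing notes without roles or versions. How reads were counted, with which build and annotation and whether by strand is not given in the sources used here. Values of near-identical, overlapping or antisense genes are uncertain for that reason.

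Reads, library denominators and coding lengths (multiples of 3) were solved from the step sizes of low RPKM. Whole reads, within 0.005, resulted for all 13715 models above 0 (100%), and they are lower bounds where a model's reads share a factor. Denominators were 46.0% to 58.7% of raw reads. Intervals and floors of 3 reads cover counting error only.

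Group differences on log2(RPKM + 0.5) were tested in 1 fit of the 6 libraries with limma 3.58.1 in R 4.3.3 (variance trend, 3 residual degrees of freedom), and p-values were adjusted by Benjamini-Hochberg with a threshold of 0.05. RPKM were scaled by trimmed means of M values (factors 0.957 to 1.06). Models entered with at least 0.744 CPM in 2 libraries and 15 reads in all (12484 models). The added 0.5 makes fold changes of low genes too small. The procedure was tested on simulated data. Group folds in the text are ratios of mean deposited RPKM. Replicates differed by more than counting noise (mean chi-square per model 3.04 to 35.7), so none were merged.

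Identifiers were matched to RefSeq locus tags (3636 of 14652), and of 3376 matches with a length 99.1% had a coding length within the gene span. Breaks between sequences were read from falling start positions. The RefSeq table holds no products or proteins, so lists planned by product words were used through symbols only, and the planned check against protein length was made against gene span.

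The members and lists were chosen with earlier results of these data known. Named were members with no reads in dhc2, the 10 with the largest separation, the 5 most abundant and 3 models on either side of the threshold. Other members are named as examples of length, spread or position, chosen after their values were seen.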

Additional observations from a re-analysis of the deposited data

How the results depend on the processing

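The number of members depended on the thresholds: 76 with 3 times in place of 4, 20 with 6 times and 27 with wild types within 1.5-fold, against 50 with a minimum of 5 RPKM, 31 with 20 RPKM and 66 without the wild-type limit. With scaled RPKM there were 49, of which 44 were shared, and model 1109355 dropped out at 3.96. Leaving out 1 library gave 47 to 56. All 45 were kept without either dhc2 library, which the rule brings about, and without E6 replicate 2. Without 12-43 replicate 1, 12-43 replicate 2 and E6 replicate 1, 39, 43 and 40 were kept. With a library left out, the 4-fold and 10 RPKM parts of the rule can only admit more models. The losses therefore come from the 2-fold limit on the wild types. The number of models called lower in dhc2 against E6 fell from 3890 to 2308 with the library group (GAAGA listed or not) as a covariate. That called higher fell from 3943 to 2448. The effect of the covariate comes from the 12-43 replicates alone, since the listing and the groups coincide between dhc2 and E6. Other settings kept the numbers called within 1.5 times: 2257 to 3388 lower against 12-43, 2954 to 4144 lower against E6, and 6075 to 7553 either way between the wild types. Same-numbered replicates did not deviate together (correlations across models -0.0014 to 0.025), and with the replicate number as a block 3139, 3794 and 7214 models were called. The quasi-likelihood test on recovered reads was not run. Voom on these reads, added after seeing the data, gave 3388, 3978 and 7553.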

Other observations

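Among members not in the RefSeq table, models 1215508, 1215519 and 1215531 have identifiers 11 and 12 apart. Their places are not known. Of 84 pairs of matched models with identifiers 6 to 12 apart, the median distance in gene order was 13 genes, and 14 pairs lay within 5 genes. Model 1215508 was at 14.1 and 13.7 RPKM in 12-43, 14.5 and 15.2 RPKM in E6, and 3.11 and 2.33 RPKM in dhc2. Model 1215531 was at 58.0 and 58.6 RPKM in 12-43, 35.4 and 41.6 RPKM in E6, and 7.39 and 6.95 RPKM in dhc2. Model 1215519, described above, had the largest separation of the 3 at 6.20, beside 4.40 and 4.79.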
